A study of Mus musculus with 17 samples.

Results

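The 10 genes described here encode transcription factors of the astrocyte lineage, namely Sox2, Sox4, Sox8, Sox9, Sox11 and Sox21 of the SOX family, Nfia, Nfib and Nfix of the nuclear factor I (NFI) family, and Zbtb20. They were taken by gene symbol from the deposited count table, which lists 56691 genes, and each of the 10 matched 1 row. The table holds 17 libraries of mouse astrocytes that were purified by immunopanning, in which cells are captured on antibody-coated dishes, and then cultured without serum. The source was the brain of C57BL/6 pups at postnatal day 2, without olfactory bulbs and cerebellum. CD45-positive and O4-positive cells were removed first, and the astrocytes were then selected with an antibody against HepaCAM. All groups received 5 ng/ml HB-EGF in the medium. In the first experiment, 500 ng/ml SAG, a small molecule that activates the hedgehog receptor component Smoothened, was compared with its vehicle DMSO (n = 3 each). Both were added at day 3 in vitro, for 3 days. In the second, FGF2 (n = 4) and FGF10 (n = 3) at 50 ng/ml were compared with PBS (n = 4) over 7 days from day 2 in vitro.

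SOX proteins bind DNA through a high-mobility-group domain and usually act together with partner factors such as POU proteins. Sox2 and Sox21 belong to the SOXB group of neural progenitors, in which SOX2 maintains progenitor identity and SOX21 is known mainly as a repressor. Sox8 and Sox9 belong to the SOXE group, whose members carry neural progenitors into glial fates, and SOX9 induces Nfia in the embryonic spinal cord. Sox4 and Sox11 belong to the SOXC group, best known from immature neurons and progenitors. NFI proteins bind as dimers to a palindrome built on TTGGC and, together with SOX9, activate astrocyte genes. Zbtb20 encodes a zinc finger repressor that is abundant in astrocytes and their precursors.

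Promoter sequences are shown for Sox2, Sox4 and Zbtb20, one gene each of the SOXB and SOXC groups and the zinc finger factor, because all 3 were lower in each SAG library than in each DMSO library, as described below. The windows run from 250 bases before to 50 bases after a RefSeq transcript start (GRCm38.p6), 5′ to 3′ on the strand of the gene. Capitals mark TTGGC, the core of NFI sites, or its reverse complement.
Sox2, chr3:34649745-34650044, plus strand: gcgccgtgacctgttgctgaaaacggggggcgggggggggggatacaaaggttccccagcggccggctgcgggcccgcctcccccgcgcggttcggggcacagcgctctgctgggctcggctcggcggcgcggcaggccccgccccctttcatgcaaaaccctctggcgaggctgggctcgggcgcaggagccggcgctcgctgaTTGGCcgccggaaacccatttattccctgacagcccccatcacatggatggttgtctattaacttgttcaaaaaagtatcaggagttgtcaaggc
Sox4, chr13:28953650-28953949, minus strand: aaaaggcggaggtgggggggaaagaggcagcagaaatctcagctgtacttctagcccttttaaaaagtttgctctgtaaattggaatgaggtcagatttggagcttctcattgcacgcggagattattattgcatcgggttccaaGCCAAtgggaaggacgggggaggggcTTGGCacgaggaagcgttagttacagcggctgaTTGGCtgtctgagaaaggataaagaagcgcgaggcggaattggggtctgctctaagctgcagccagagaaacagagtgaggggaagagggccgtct
Zbtb20, chr16:43247034-43247333, plus strand: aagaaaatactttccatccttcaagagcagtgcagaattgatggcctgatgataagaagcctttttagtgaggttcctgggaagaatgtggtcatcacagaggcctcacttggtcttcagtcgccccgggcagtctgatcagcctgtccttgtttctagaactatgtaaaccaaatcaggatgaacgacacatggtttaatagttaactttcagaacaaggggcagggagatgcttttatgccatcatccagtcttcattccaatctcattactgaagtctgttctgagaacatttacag

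The Sox2 window had a GC content of 66.3% and 27 CpG dinucleotides, against medians of 52.7% and 7 over the 32851 promoters of the same length, whereas the Zbtb20 window had 43.3% and 3. The Zbtb20 window lies at a start inside the gene (chr16:42875881-43642602). The outermost start of Zbtb20 was not analysed here. Short letter strings were searched on both strands in the windows of the 8 genes that had an entry (Sox9 and Nfib were not analysed here), Nfix having more than 1. TTGGC occurred in at least 1 window of 5 of the 8 genes, with 1 match in Sox2, 3 in Sox4 and 0 in Zbtb20, and it occurs in 46.7% of all promoters. ACAAT, a core of SOX sites, was found for 2 of the 8 genes, Nfia and Nfix, and in 31.0% of all promoters. The full palindromic NFI site, which contains the TTGGC string, and the GLI site GACCACCCA were found for 0 of the 8, and in 0.0365% and 0.253% of all promoters. These matches describe letters in a window and not binding.

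Levels are given as CPM, the count of a gene scaled to a common library size, after TMM normalization over the 17 libraries. Library totals ranged from 17481727 to 68342287 counts, so that each of the 10 genes was read with high precision in each library, and the spread between replicates rather than the counting error set the limits. A CPM value is compared between libraries for 1 gene and not between genes. All 10 genes were detected in each of the 17 libraries and passed the filter on low counts in each comparison. The astrocyte label was checked against its markers. Slc1a3, Slc1a2, Aldoc, Glul, Hepacam, Aldh1l1 and Gfap had counts in each library, while S100b, another astrocyte gene, had a median of 0 CPM in SAG. None of the 6 microglia and macrophage markers passed the filter in any comparison. None of the 3 fibroblast markers passed it under SAG and DMSO. In the FGF experiment Col1a1 passed it for FGF10 against PBS and between replicate sets, and the fibroblast markers summed to at most 17.7 CPM in PBS. Transcripts of the oligodendrocyte lineage and of neurons were present in all groups. In bulk libraries, fewer cells of a type and less RNA per cell cannot be told apart.

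**Figure D1:**
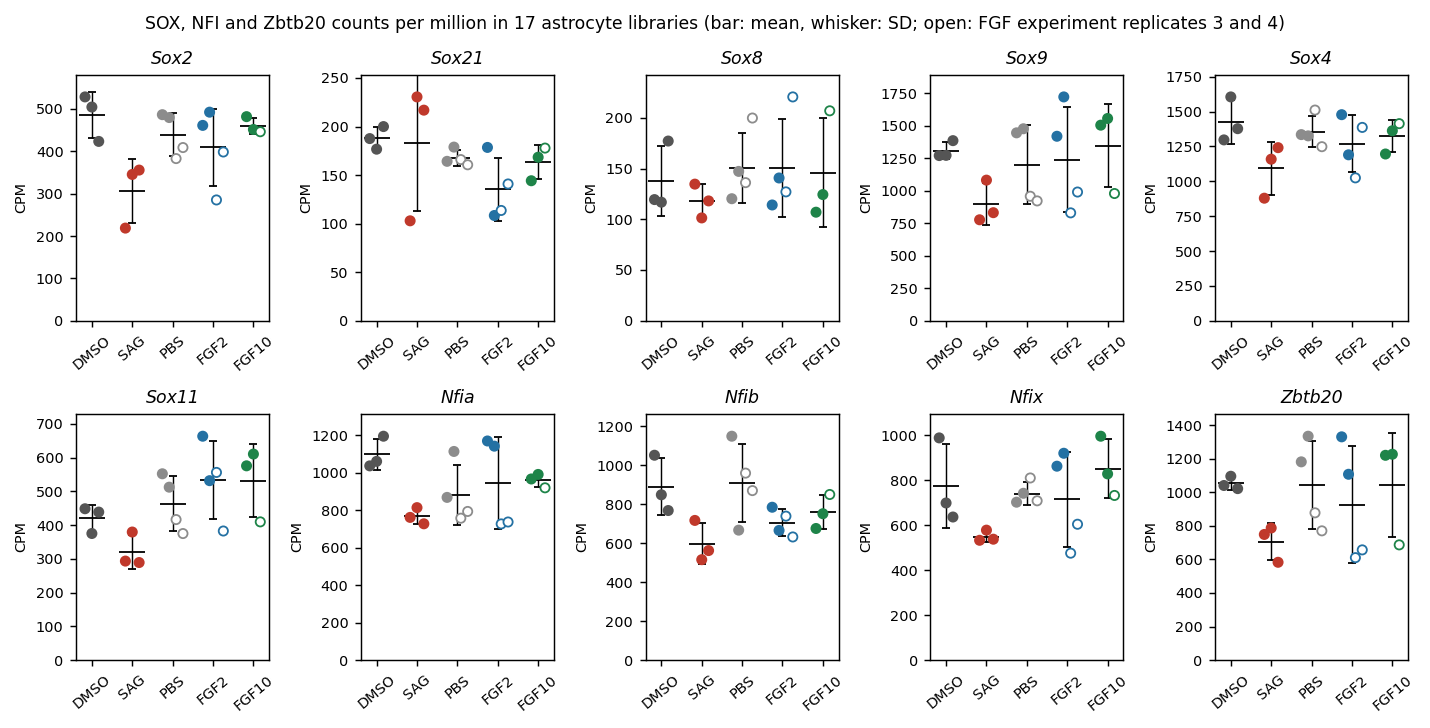
CPM of each of the 10 genes (vertical axes, from 0) in the 17 libraries, grouped by treatment along the horizontal axes, with the group mean (bar) and SD (whisker); open circles mark replicates 3 and 4 of the FGF experiment. For Sox9 and Zbtb20 the open circles lie below the filled ones within PBS, FGF2 and FGF10, and the 3 SAG libraries lie below the 3 DMSO libraries for 7 of the 10 genes.

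The first comparison asked whether activation of hedgehog signaling alters the levels of these factors. Each of the 10 genes had a log2 fold change below 0 in SAG against DMSO, as did 51.1% of all 12538 genes tested and 46.0% of the 1560 genes at 100 CPM or more. For 7 of them (Sox2, Sox4, Sox9, Nfia, Nfib, Nfix and Zbtb20) each SAG library lay below each DMSO library. In this direction 8.18% of all genes were separated, and 10.2% of the genes at 100 CPM or more. None of the 10 genes passed the edgeR quasi-likelihood test at an adjusted p under 0.05, which 8 of 12538 genes (0.0638%) passed. At an unadjusted p under 0.05, 6 of the 10 were lower, against 3.06% of all genes and 5.90% of the genes at 100 CPM or more. With DESeq2, 4 of the 10 passed (Sox2, Sox9, Nfia and Zbtb20), all of them lower, against 394 of 13528 genes (2.91% in either direction, 1.52% lower). The median log2 fold change of the 10 genes was -0.48, against -0.02 over all genes and 0.03 over the genes at 100 CPM or more.

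Sox2 (chr3:34650405-34652461, GRCm38) lies inside an intron of the long noncoding RNA gene Sox2ot on the same strand. It was measured at 528, 504 and 423 CPM in DMSO and at 219, 345 and 356 CPM in SAG. The groups did not overlap, and SAG replicate 1 was the lowest of the 17 libraries. The log2 fold change of -0.64 (SE 0.22) had the greatest size among the 10 genes, with an adjusted p of 0.595 by edgeR and of 0.0394 by DESeq2. Without SAG replicate 1 the log2 fold change was -0.45. Sox2ot itself, whose exons do not overlap Sox2, was measured at 44.9 to 96.2 CPM in DMSO and 122 to 136 CPM in SAG. Its groups did not overlap either, in the opposite direction (log2 fold change 0.72, edgeR adjusted p = 0.850).

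Sox21 (chr14:118233232-118237030) was measured at 188, 177 and 200 CPM in DMSO and at 103, 230 and 217 CPM in SAG. The SAG libraries lay on both sides of the DMSO range, with replicate 1 below and the other two above it. The log2 fold change was -0.01 (SE 0.29), and without SAG replicate 1 it was 0.27 (edgeR adjusted p = 0.995). The SOXB factors thus had different values in the same libraries, although the difference between the 2 genes was not tested.

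Sox9 (chr11:112782224-112787760), the SOXE factor of astrocyte specification, was measured at 1271, 1273 and 1386 CPM in DMSO and at 777, 1082 and 832 CPM in SAG. No SAG library reached the DMSO range, and the spread was wider in SAG (SD 163 CPM) than in DMSO (SD 65.9 CPM). The log2 fold change was -0.52 (SE 0.16), with an adjusted p of 0.522 by edgeR and of 0.0171 by DESeq2. Sox8 (chr17:25565892-25570686), its close relative, was measured at 119, 117 and 177 CPM in DMSO and at 135, 101 and 118 CPM in SAG. The groups overlapped, and without DMSO replicate 3 the log2 fold change of -0.20 (SE 0.26) became 0.02.

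Sox4 (chr13:28948919-28953713) was measured at 1297, 1605 and 1377 CPM in DMSO and at 879, 1158 and 1241 CPM in SAG. The highest SAG library lay just under the lowest DMSO library, and the log2 fold change was -0.36 (SE 0.17, edgeR adjusted p = 0.910). Sox11 (chr12:27334264-27342574) was measured at 449, 375 and 439 CPM in DMSO and at 293, 380 and 289 CPM in SAG. SAG replicate 2 fell within the DMSO range, and the log2 fold change was -0.37 (SE 0.19, edgeR adjusted p = 1.000). Neither of these 2 genes passed the test with DESeq2 (adjusted p = 0.235 for Sox4 and 0.287 for Sox11).

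The 3 NFI genes were separated between the groups. Nfia (chr4:97772734-98118874), which promotes the switch from neurogenesis to gliogenesis, was measured at 1036, 1060 and 1194 CPM in DMSO and at 761, 813 and 727 CPM in SAG. The replicates were close within both groups, and the log2 fold change was -0.49 (SE 0.15), with an adjusted p of 0.500 by edgeR and of 0.0108 by DESeq2. Nfib (chr4:82290173-82705750) was measured at 1052, 849 and 768 CPM in DMSO and at 717, 515 and 562 CPM in SAG. Its log2 fold change was -0.55 (SE 0.19), with an adjusted p of 0.592 by edgeR and of 0.0533 by DESeq2. Nfix (chr8:84699876-84800344) was measured at 989, 699 and 636 CPM in DMSO and at 533, 578 and 538 CPM in SAG. DMSO replicate 1 stood above the other two for both Nfib and Nfix. The unadjusted edgeR p of Nfib was above 0.05 without DMSO replicate 1 (0.0737) or SAG replicate 2 (0.0616). That of Nfix was above it without DMSO replicate 1 (0.192) or without SAG replicate 1, 2 or 3 (0.0657, 0.0512 and 0.0691). Of the 10 genes, 4 rather than 6 were under 0.05 without DMSO replicate 1.

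Zbtb20 (chr16:42875881-43642602) was measured at 1041, 1096 and 1023 CPM in DMSO and at 749, 788 and 583 CPM in SAG. The DMSO libraries were close to each other (SD 38.4 CPM), and each SAG library lay well below them. The log2 fold change of -0.55 (SE 0.16) came with the lowest adjusted p among the 10, 0.469 by edgeR and 0.00800 by DESeq2. An exact permutation test on 3 against 3 libraries cannot go below p = 0.1, and it gave p = 0.1 (two-sided) for each of the 7 separated genes. That value follows from the separation itself and adds nothing to it.

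**Figure D2:**
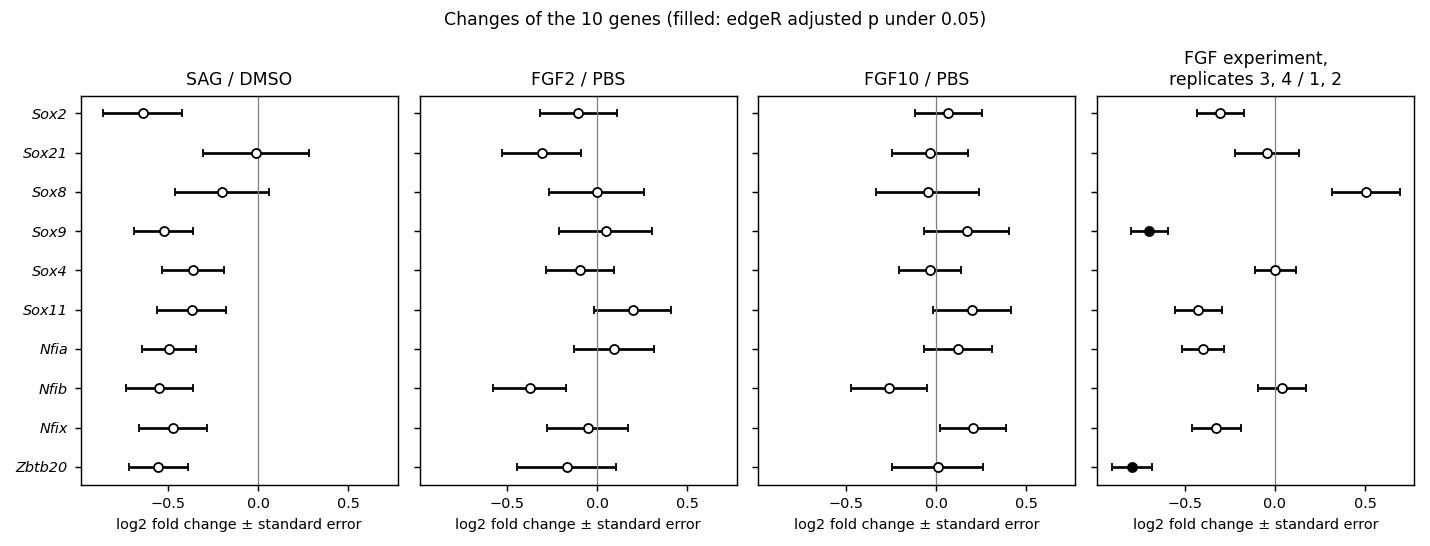
Log2 fold changes of the 10 genes (horizontal axes) with the edgeR standard error (whiskers) in 4 comparisons, a filled circle marking an adjusted p under 0.05. Under SAG all 10 values lie below 0 and none is filled, under FGF2 and FGF10 they lie on both sides of 0, and in the comparison of replicate sets Sox9 and Zbtb20 are filled.

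Other genes of these families and their partners were examined under SAG. Among 14 other SOX and NFI genes, 8 passed the filter, 4 were higher and 4 lower, none passed the edgeR test and 1, Sox10, passed with DESeq2. Their median log2 fold change was 0.00. The most negative values were -1.30 for Nfic and -1.11 for Sox10, a factor of the oligodendrocyte lineage that was measured at 71.7 to 119 CPM in DMSO and 39.4 to 48.4 CPM in SAG. The most positive were 1.09 for Sox13 and 0.37 for Sox1. All 5 SOX partner factors on the list had values below 0, from -0.90 for Pou3f4 to -0.14 for Chd7, with none passing the edgeR test and Pou3f2 (-0.80) passing with DESeq2 (adjusted p = 0.0338).

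Of 14 other transcription factors of astrocytes, Id4, an inhibitor of basic helix-loop-helix factors, fell (log2 fold change -1.46, SE 0.21, edgeR adjusted p = 0.0366). Its libraries lay between 405 and 512 CPM in DMSO and between 127 and 182 CPM in SAG. The other 13 did not pass, and the median of the list was 0.06, with 8 genes higher and 6 lower. The most positive value was 1.64 for Dbx2. By edgeR 4 of the 14 were at an unadjusted p under 0.05, of which 1 was lower, against 5.69% of all genes in either direction. DESeq2 called 2 of the 14 (2.91% of all genes). Of 13 astrocyte genes with known regulation by SOX9 or NFIA, 6 were higher and 7 lower, and none passed the edgeR test, while 4 passed with DESeq2. Gfap, the intermediate filament gene that NFIA is known to activate, was measured at 140, 199 and 183 CPM in DMSO and at 59.9, 36.0 and 25.3 CPM in SAG (log2 fold change -2.08, SE 0.35, edgeR adjusted p = 0.0854). Glul was lower as well, at 1504 to 1647 CPM in DMSO and 979 to 1279 CPM in SAG. Aldh1l1, a general astrocyte gene, was at 152 to 172 CPM in DMSO and 201 to 353 CPM in SAG (0.80, edgeR adjusted p = 0.484), and Fabp7, a radial glia and immature astrocyte gene, at 1375 to 1609 and 2063 to 2509 CPM (0.60, edgeR adjusted p = 0.369). The groups were separate for these 4 of the 13 genes, Gfap and Glul lower and the others higher, against 14.1% of all genes in either direction. The median of the 13 genes was -0.01, so that the genes of this list lay on both sides of 0 while the 10 factors lay on 1 side.

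**Figure D3:**
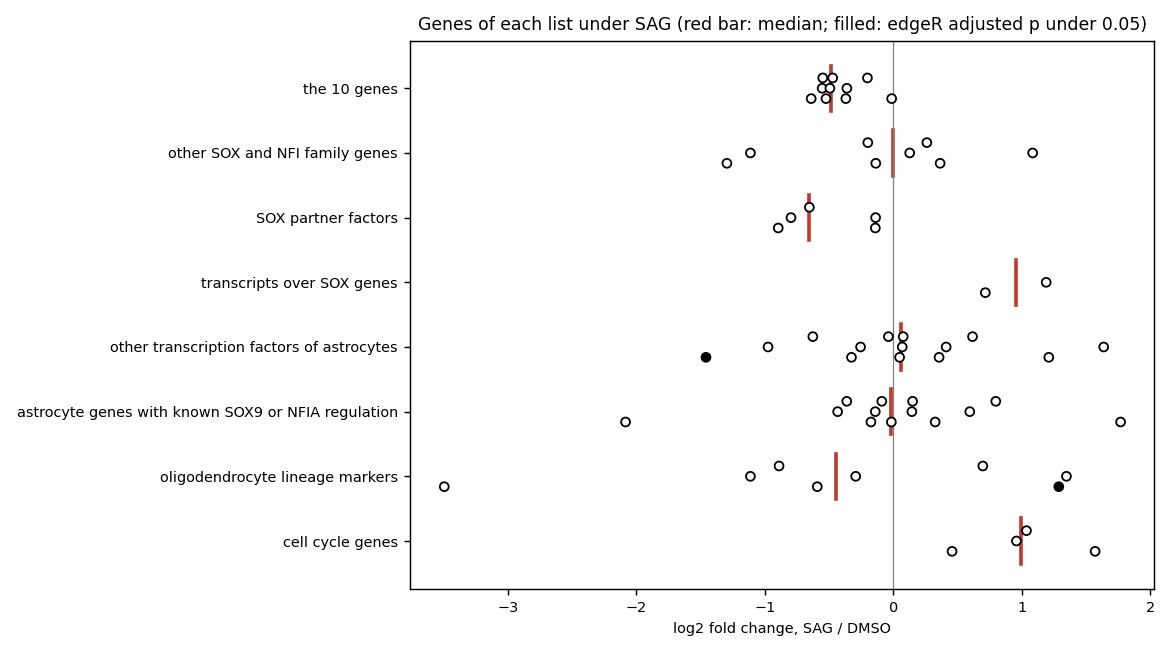
Log2 fold changes under SAG (horizontal axis) of the tested genes of 8 lists, with list medians as red bars and filled circles for an edgeR adjusted p under 0.05. The 10 factors lie between -0.64 and -0.01, and the filled circles are Id4 and Olig1.

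Summed levels of other marker lists are given by their range over the libraries. The summed level of the 9 oligodendrocyte lineage markers was 1988 to 2417 CPM in DMSO and 3689 to 3837 CPM in SAG, with Mog at 0 in both, and Olig1 rose (log2 fold change 1.29, edgeR adjusted p = 0.00420). Most of this sum came from Olig1 and Olig2, and 5 of the 8 markers tested had values below 0. The 3 ependymal markers summed to 148 to 248 CPM in DMSO and 69.4 to 139 CPM in SAG, with Ccdc153 at 0 in SAG. The 4 cell cycle genes summed to 129 to 215 CPM in DMSO and 181 to 342 CPM in SAG. The 5 endothelial and mural markers summed to 22.3 to 24.01 CPM in DMSO and 0 to 13.8 CPM in SAG, with Pecam1 and Cldn5 at 0 in both and Pdgfrb, the 1 marker tested, at a log2 fold change of -3.31 (edgeR adjusted p = 1.000). The 8 neuron markers summed to 53.4 to 198 CPM in DMSO and 24.04 to 76.0 CPM in SAG, which overlap, with Slc17a7 at 0 in both. Of the 6 tested, 4 were lower and 0 passed, 0 were at an unadjusted edgeR p under 0.05 and DESeq2 called 0, with a median of -1.18 and the lowest value in Dcx (-3.87). Their part in the lower levels of the SOX and NFI genes was not tested. Ptch1, a hedgehog target and check of the treatment, rose, its libraries lying between 67.2 and 103 CPM in DMSO and between 461 and 482 CPM in SAG (log2 fold change 2.50, edgeR adjusted p = 0.00173).

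The second question was whether FGF2 or FGF10 alters these factors. None of the 10 genes passed the test for FGF2 against PBS, where 0 of 12744 genes passed (0%), or for FGF10 against PBS, where 0 of 13309 passed (0%). By edgeR, with treatment alone in the fit and all libraries kept, 0 of the 10 were at an unadjusted p under 0.05 in either comparison. The shares of all genes were 1.75% and 2.29%. For FGF2, Nfib was lower at that p when the fit also held the replicate number. The same held with a term setting replicates 1 and 2 apart from 3 and 4, without PBS replicate 2, and with DESeq2. Its adjusted p stayed above 0.05 in each of these. DESeq2 called 0 of the 10 in both, among 123 (0.877%) and 102 (0.625%) genes. The groups overlapped for each of the 10 genes in both, while 2.44% and 4.80% of all genes were separated. Both comparisons share the 4 PBS libraries, so their values are set side by side without a test of likeness.

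Nfib had the most negative log2 fold change in both, -0.37 (SE 0.20) for FGF2 and -0.26 (SE 0.21) for FGF10. It was measured at 1149, 667, 960 and 870 CPM in PBS, at 785, 666, 739 and 632 CPM in FGF2 and at 676, 751 and 850 CPM in FGF10. PBS replicate 2 was as low as the FGF libraries. Within replicates 1 and 2, and within replicates 3 and 4, the value for FGF2 was -0.32 and -0.43, and for the latter Nfib and Nfix were at an unadjusted edgeR p under 0.05. Sox21 followed for FGF2 with -0.31 (SE 0.22), at 164, 179, 166 and 161 CPM in PBS and 178, 108, 114 and 141 CPM in FGF2. FGF2 replicate 1 lay within the PBS range and the other 3 below it. For FGF10 the value was -0.03 (SE 0.21).

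Sox11 had the most positive value for FGF2, 0.20 (SE 0.21), and Nfix for FGF10, 0.20 (SE 0.18). Sox11 was measured at 552, 513, 417 and 375 CPM in PBS and at 664, 532, 556 and 383 CPM in FGF2. The lowest library of both groups was replicate 4, and the groups overlapped over most of their range. Nfix was measured at 702, 742, 810 and 709 CPM in PBS, at 863, 920, 476 and 604 CPM in FGF2 and at 996, 828 and 732 CPM in FGF10. The FGF2 libraries split by replicate number, with 1 and 2 above the PBS range and 3 and 4 below it, and the log2 fold change was 0.31 within replicates 1 and 2 and -0.50 within replicates 3 and 4. The other 6 genes (Sox2, Sox4, Sox8, Sox9, Nfia and Zbtb20) had log2 fold changes between -0.17 and 0.17 in the 2 comparisons, with standard errors from 0.17 to 0.29. FGF10 has 2 of its 3 libraries numbered 1 or 2 and PBS 2 of 4, and Sox9 and Zbtb20 differed between these numbers, as described below. For FGF10, the value of Sox9 was 0.17, and 0.053 once the fit held a term for these numbers. That of Zbtb20 was 0.0086, and -0.15 with that term. Neither passed the edgeR test in either fit.

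FGF2 and FGF10 were also compared with each other. Log2 fold changes of the 10 genes, FGF2 over FGF10, ranged from -0.27 (Sox21, SE 0.25) to 0.05 (Sox8, SE 0.31). None of the 10, and 0 of 13493 genes (0%), passed the edgeR test, 0 of the 10 were at an unadjusted p under 0.05 (2.40% of all genes), and DESeq2 called 0 of the 10 among 91 genes (0.590%). The vehicles PBS and DMSO, which also differ in experiment and days in culture so that these cannot be told apart, gave values from -0.29 (Nfia, SE 0.18) to 0.16 (Sox11, SE 0.20). By edgeR 0 of 13271 genes (0%) and none of the 10 passed, 0 of the 10 were at an unadjusted p under 0.05 (4.37% of all genes), and DESeq2 called 0 of the 10 among 194 genes (1.43%).

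The spread among libraries of the FGF experiment followed the replicate number for several of the factors. The libraries numbered 1 and 2 in their titles (n = 6) were therefore compared with those numbered 3 and 4 (n = 5, of which FGF10 has 1), with treatment as a term. The labels do not say what separates the numbers. The split was chosen because earlier results of these data had shown it. The p-values and shares of this comparison are therefore descriptive, and not those of a split set beforehand. Sox9 and Zbtb20 were lower in replicates 3 and 4 (edgeR), and 586 of 15849 genes (3.70%) passed in either direction and 1.60% in this one. Among genes at 100 CPM or more, 20.7% passed, and 7.33% in this direction. Of the 10 genes, 7 were at an unadjusted p under 0.05, against 13.3% of all genes and 44.3% of the genes at 100 CPM or more. The median log2 fold change of the 10 was -0.31, against -0.05 over all genes and 0.06 over those at 100 CPM or more.

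Among PBS libraries, Sox9 was at 1446 and 1477 CPM in the first set and at 958 and 922 CPM in the second. The sets gave 1420 and 1722 against 830 and 990 CPM in FGF2, and 1505 and 1556 against 979 CPM in FGF10. The 2 sets did not overlap, at 1521 CPM ± 109 (SD, n = 6) and 936 CPM ± 64.6 (SD, n = 5), and Sox9 fell in the later numbers (log2 fold change -0.70, SE 0.10, edgeR adjusted p = 0.000114). Zbtb20 was measured at 1182 and 1335 against 878 and 771 CPM in PBS, at 1331 and 1108 against 611 and 657 CPM in FGF2, and at 1221 and 1228 against 687 CPM in FGF10. It fell too (log2 fold change -0.79, SE 0.11, edgeR adjusted p = 5.32e-05), and the sets were again separate. With Sox2, 3 of the 10 genes had separate sets and lower levels in the second, against 2.11% of all genes and 7.26% of those at 100 CPM or more. Both calls held in each of the 11 fits that left out 1 library, whereas 0 genes of the 10 passed at an adjusted p under 0.01 with a log2 fold change beyond 1.

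Nfia and Sox11 came next, with log2 fold changes of -0.40 (SE 0.12, edgeR adjusted p = 0.0556) and -0.42 (SE 0.13, edgeR adjusted p = 0.0733). Their sets overlapped by a few libraries. Nfia reached an adjusted p of 0.0386 without PBS replicate 1 and 0.0397 without FGF10 replicate 3, and Sox11 0.0237 without FGF2 replicate 3 (edgeR). Nfia was also past the threshold with DESeq2 size factors (0.0488) and when genes were kept at an average of 10 counts (0.0236), both in edgeR. DESeq2 called 5 of the 10 (16.1% of all genes), Sox9, Zbtb20, Nfia and Sox11 lower and Sox8 higher.

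Sox8 went the other way from its relative Sox9. In PBS it was measured at 120 and 147 CPM in the first set against 136 and 200 CPM in the second, at 114 and 141 against 127 and 221 CPM in FGF2, and at 107 and 124 against 207 CPM in FGF10. Its log2 fold change was 0.50 (SE 0.19, edgeR adjusted p = 0.192), and the sets overlapped through replicate 3 of PBS and FGF2. Sox2 was at 451 to 492 CPM in the first set and 285 to 446 CPM in the second, without overlap (log2 fold change -0.30, edgeR adjusted p = 0.302). Sox4, Nfib and Sox21 had values of 0.00, 0.04 and -0.04, with standard errors from 0.11 to 0.18, and Nfix had -0.32 (SE 0.14, edgeR adjusted p = 0.280).

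Several lists moved with the replicate number. The 4 cell cycle genes rose, from a summed 96.2 to 272 CPM in replicates 1 and 2 to 843 to 1264 CPM in replicates 3 and 4, and so did Olig1 (1.44), Olig2 (1.02), Hes5 (1.12) and Fabp7 (1.04, all of them log2 fold changes past the edgeR test). Of the 13 astrocyte genes with known SOX9 or NFIA regulation, 3 rose and 3 fell by edgeR, with a median log2 fold change of -0.29. Fabp7, Aldh1l1 (0.79) and Zcchc24 (0.87) rose, and the sets were separate for all 3. They were at 1529 to 1778 and 2713 to 4852 CPM for Fabp7 and at 167 to 246 and 303 to 432 CPM for Aldh1l1. For Zcchc24 they were at 73.4 to 146 and 180 to 201 CPM. Gfap (-2.82), Slc1a2 (-0.57) and Glul (-0.48) fell, the last encoding glutamine synthetase. Id4 (-1.39) fell as well. The summed oligodendrocyte lineage markers were at 1835 to 2134 CPM and 3299 to 4301 CPM, with Mog at 0 in the second set, and the ependymal markers at 307 to 461 CPM and 78.6 to 204 CPM. The neuron markers summed to 112 to 191 CPM in the first set and 30.9 to 58.2 CPM in the second, and Slc17a7 was at 0 in both. Of the 7 tested, 6 had values below 0 and 4 were at an unadjusted edgeR p under 0.05, with a median of -2.20. Tubb3 (-2.20) fell by edgeR, and DESeq2 called 4. The endothelial and mural markers summed to 14.4 to 64.7 and 0 to 9.36 CPM, with Cldn5 at 0 in both sets, and Pdgfrb (-4.97) fell. Of 6 hedgehog and FGF readouts tested, Dusp6 (2.00), Etv4 (1.89) and Etv5 (1.49), known targets of FGF signaling, rose in replicates 3 and 4 with treatment as a term in the fit. Of the 8 other SOX and NFI genes tested, Sox3, a SOXB factor, rose (0.69, edgeR adjusted p = 0.0277) and 7 did not pass. None of the 5 SOX partner factors passed the edgeR test, none was at an unadjusted p under 0.05 and DESeq2 called 0 of them. The part of these shifts in the levels of Sox9 and Zbtb20 was not tested.

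**Figure D4:**
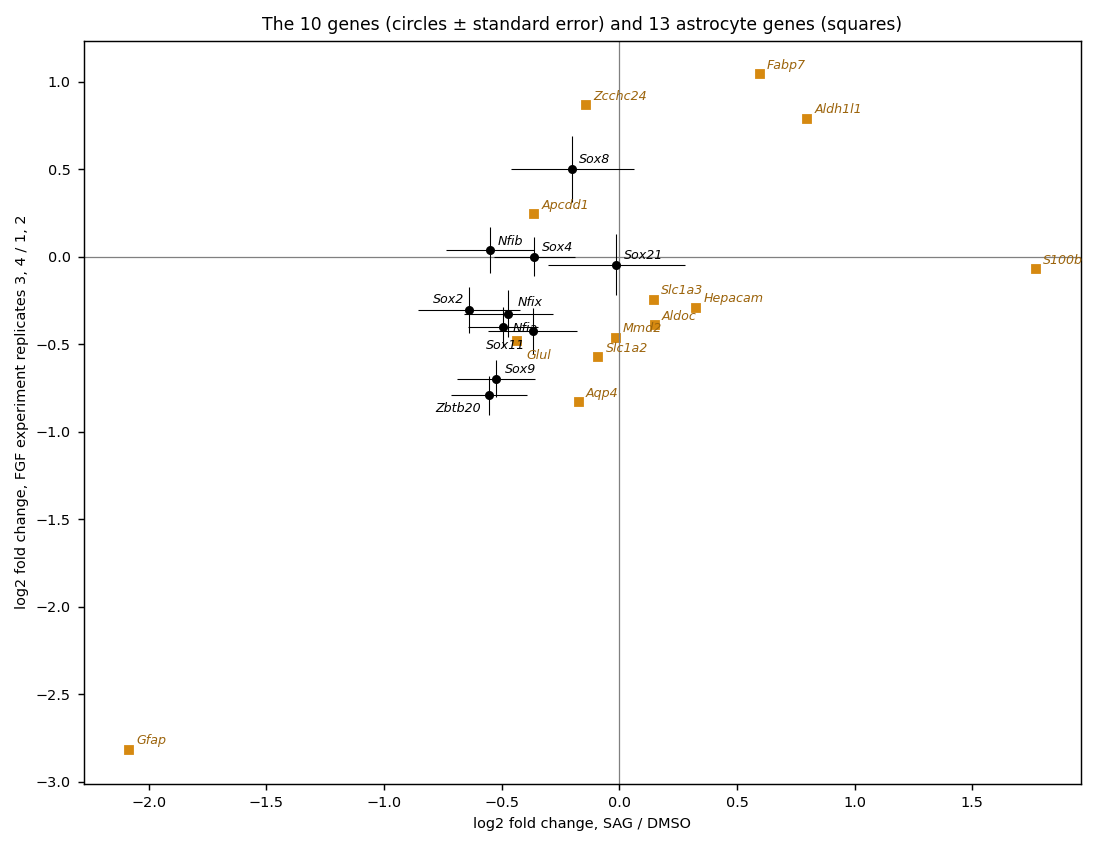
Log2 fold changes of the 10 factors (circles, whiskers are edgeR standard errors) and of 13 astrocyte genes with known SOX9 or NFIA regulation (squares) under SAG (horizontal axis) and in replicates 3 and 4 against 1 and 2 of the FGF experiment (vertical axis). The comparisons share no library; Sox9 and Zbtb20 lie below 0 on both axes, as does Gfap, while Sox4 and Nfib lie near 0 on the vertical axis only.

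The SAG and replicate-set comparisons share no library, so the values of the factors can be set beside each other. Sox9 had -0.52 under SAG and -0.70 between the sets, Zbtb20 -0.55 and -0.79, and Nfia -0.49 and -0.40. Sox2 had -0.64 and -0.30, Nfix -0.47 and -0.32, Sox11 -0.37 and -0.42, and Sox21 -0.01 and -0.04. These 7 of the 10 genes lay below 0 in both, Sox21 only just, and its sign turned in fits that left out 1 library. Of all genes tested, 51.1% lay below 0 under SAG and 52.5% between the sets. The share of all genes below 0 in both was not counted. Between the sets 2 of the 10 passed the edgeR test (3.70% of all genes), and under SAG 0 passed (0.0638% of all genes). Nfib (-0.55 and 0.04) and Sox4 (-0.36 and 0.00) were near 0 between the sets, and Sox8 (-0.20 and 0.50) had values of opposite sign. Differences between the comparisons were not tested.

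In the order of group means, SAG was the lowest of the 5 groups for 9 of the 10 genes, the exception being Sox21, whose lowest mean was in FGF2 (135 CPM ± 32.1, SD, n = 4). The SAG libraries overlapped with those of the group next above for each of these 9 genes. Zbtb20, for example, was at 707 CPM ± 109 (SD, n = 3) in SAG and 927 CPM ± 351 (SD, n = 4) in FGF2, where 2 of the 4 libraries lay within the SAG range. At the top of the order, DMSO had the highest mean for Sox2 (485 CPM ± 55.1), Sox4, Sox21, Nfia (1096 CPM ± 85.3) and Zbtb20 (SD, n = 3). Nfia in DMSO was above each FGF10 library, and all other neighbouring groups in the order overlapped.

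The genes whose log2 CPM followed each factor most closely over the 17 libraries were listed among 7821 genes with more than 3 counts in each library. For Zbtb20 these were Gabrb1 (Pearson r = 0.95), Gfap (0.93) and Id4 (0.92), and for Sox9 Fth1 (0.93), Col9a2 (0.93) and Gabrb1 (0.92). Sox11 was followed by Mt2 (0.92), Mt1 (0.92) and Kctd15 (0.86), the first 2 being metallothionein genes. The highest r was lower for the other factors, 0.88 for Sox2 (Fezf2), 0.88 for Nfia (P4ha3), 0.84 for Nfix (Ahdc1), 0.83 for Sox4 (Proser1), 0.82 for Sox8 (Dll3), 0.80 for Nfib (Nup107) and 0.79 for Sox21 (Helt). Without the 2 libraries farthest from the median, r was 0.57 for both Sox2 and Sox4 with these genes and 0.66 for Sox8, and it was between 0.74 and 0.93 for the other 7. These are descriptions over libraries that share treatment and replicate number.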

How the data were processed

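Libraries were 3′ end libraries (QuantSeq), and the authors aligned them with STAR to GRCm38 and deposited raw read counts per gene. The annotation and the strand setting of the counting are not given in the sources used here, so reads of Sox21 and Nfia could not be told apart from those of antisense genes that overlap their exons (Gm4675 and E130114P18Rik, up to 22.4% and 11.1% of their counts). Antisense genes also overlap exons of Sox4 (Gm26735) and Sox8 (2810468N07Rik). These have no row in the count table, so their share is unknown. Of 56805 rows, 114 spike-in rows were left out. Columns named for Shh were matched to the SAG libraries by their number. Replicate libraries of 1 group differed beyond sampling noise, so none was treated as a copy of another, which does not show that they came from separate cultures. The study's methods call them biological replicates, and p-values measure only the spread between these libraries.

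Each comparison was fitted on its own groups with edgeR 4.0.16 (R 4.3.3, filterByExpr with a minimum count of 10 and total of 15, TMM, quasi-likelihood test) and adjusted by Benjamini-Hochberg over all genes tested. The threshold was an adjusted p of 0.05. The fits were run on simulated counts with larger changes than those of the 10 genes. The simulated spread between libraries was also lower than the common spread over all genes here. The simulation therefore does not show whether changes of the sizes reported would be found. DESeq2 1.42.0, other filters, size factors, all 5 groups, a replicate block and leaving out each library were alternatives. The study's methods state 3 libraries for FGF2, and all 4 deposited ones were used. The 10 genes are all described, and other genes come from lists by their calls or extreme values. The 10 genes and all lists were chosen with earlier results of these data known. Gene positions are from GENCODE M21 and promoters from RefSeq.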

Additional observations from a re-analysis of the deposited data

Results flagged for a closer look

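The count table also holds 114 rows of spike-in RNA standards, which enter none of the comparisons above. Counts on these rows were 0 in 9 of the 17 libraries and above 0 in 8, with 86 counts in the highest library, DMSO replicate 3, and they were singled out because a signal stood in rows that were not analysed. Of 20 checks for a library far from the others of its group, over the 10 genes in the groups of 4 libraries, 0 passed the limit.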

How the results depend on the processing

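The signs of all 10 values under SAG held in the 7 settings that kept all libraries, with 6 to 8 genes at an unadjusted p under 0.05. When 1 library was left out, 8 to 10 values lay below 0 and 4 to 6 genes were at that p. The number of the 10 genes called was 0 in these edgeR fits and 4 with DESeq2, which called 394 genes in all. Over all genes, edgeR called 8 with all libraries kept and 1 to 7 with 1 library left out, where DESeq2 was not run. For the replicate sets the number of the 10 called was 5 with DESeq2 and 0 at the study's threshold (adjusted p under 0.01 and log2 fold change beyond 1). By edgeR it was 2 to 3 with 1 library left out. In the other 4 comparisons it was 0 in each setting. Signs turned for values near 0. With 1 library left out, Sox8 ran from -0.31 to 0.020 and Sox21 from -0.20 to 0.27 under SAG, Nfix from -0.19 to 0.10 for FGF2, Sox21 from -0.10 to 0.030 for FGF10, and Sox8 from -0.20 to 0.38 for FGF2 against FGF10. Between the replicate sets Nfib ran from -0.043 to 0.18, Sox21 from -0.12 to 0.087 and Sox4 from -0.047 to 0.080, and Sox4 was -0.0058 with DESeq2 size factors and -0.0063 with DESeq2. Nfix for FGF2 was 0.31 within replicates 1 and 2. Zbtb20 for FGF10, 0.0086 as reported, ran from -0.14 to 0.23 with 1 library left out. It was -0.0027 with DESeq2 size factors, -0.0075 with a mean of at least 10 counts, -0.0023 with DESeq2, -0.14 with the replicate block, -0.15 with the replicate set as a term and -0.044 within replicates 1 and 2. The cause of these turns was not tested. Over all 10 genes, signs turned in 13 of 80 values for FGF2 and 11 of 70 for FGF10 with 1 library left out.

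Neither the labels nor the study's methods state whether same-numbered libraries were paired. Their deviations correlated between -0.02 and 0.13 without every pair of a comparison exceeding 0.1. With a replicate block 0 of the 10 genes were called in the 5 comparisons, and Sox8 for FGF2 against FGF10 was -0.14.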
